A study of Arabidopsis thaliana with 12 samples.

Results

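Iron uptake and homeostasis in Arabidopsis thaliana seedlings was followed through 10 genes, taken by their gene identifiers out of 33602 in the count tables. They are FIT (AT2G28160), IRT1 (AT4G19690), FRO2 (AT1G01580), bHLH38 (AT3G56970), bHLH39 (AT3G56980), bHLH100 (AT2G41240), bHLH101 (AT5G04150), BTS (AT3G18290), PYE (AT3G47640) and FER1 (AT5G01600). The rule names genes and uses no measured value, although the set was proposed with earlier results of these data known. All 10 had enough reads to be tested. RNA-seq libraries came from whole seedlings of the Col-0 wild type (WT) or of ahl10-1, a T-DNA insertion line (Salk_073165) in AHL10, which encodes an AT-hook DNA-binding protein. The mutant is a single allele, so an effect of the line and an effect of AHL10 cannot be told apart. All seedlings grew on sugar-free agar, and those of the control groups were held at a water potential of -0.25 MPa. Seedlings of the stress groups were moved at day 7 to agar infused with PEG, an osmoticum that draws water from the plant, at -0.7 MPa. Both were collected 96 h later, with 3 libraries in each of the 4 groups. Because whole seedlings were used, fewer cells of a type and less RNA per cell cannot be told apart.

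Arabidopsis takes up iron by a reduction strategy at the root surface. FRO2, a membrane reductase, turns ferric into ferrous iron, and IRT1 carries ferrous iron into epidermal cells. Both genes are switched on under iron deficiency by FIT, a root transcription factor that works as a dimer with one of the group Ib basic helix-loop-helix (bHLH) factors bHLH38, bHLH39, bHLH100 and bHLH101. The transcripts of the Ib factors rise when a plant lacks iron, in shoots as well as roots, and are widely used as a readout of iron status. PYE is a bHLH repressor induced with them, BTS is an iron-binding ubiquitin ligase that holds the response down, and FER1 encodes a plastid ferritin that stores iron and is induced by iron excess. FIT and IRT1 are also controlled at the protein level, which transcript counts do not show.

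Proteins of the bHLH family bind E-boxes, written CANNTG, of which the palindrome CACGTG, the G-box, is 1 form. The 300 bases before the annotated start of the 4 Ib genes, of IRT1, FRO2 and BTS are printed here because the results below turn on whether these genes moved together, with every CANNTG in capitals. Sequences are RefSeq's TAIR10.1, read 5′ to 3′ on the gene's own strand. The windows lie at chr3:21085246-21085545 for bHLH38, chr3:21087711-21088010 for bHLH39, chr2:17199455-17199754 for bHLH100 and chr5:1139634-1139933 for bHLH101, all on the minus strand. Those of IRT1 (chr4:10707044-10707343), FRO2 (chr1:208695-208994) and BTS (chr3:6273666-6273965) are on the plus strand.
bHLH38: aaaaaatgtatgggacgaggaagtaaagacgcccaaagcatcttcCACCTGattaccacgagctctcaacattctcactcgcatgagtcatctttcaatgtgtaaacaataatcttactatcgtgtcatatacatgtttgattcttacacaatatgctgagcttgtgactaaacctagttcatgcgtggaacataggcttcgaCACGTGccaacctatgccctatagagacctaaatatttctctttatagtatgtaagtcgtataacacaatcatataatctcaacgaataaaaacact
bHLH39: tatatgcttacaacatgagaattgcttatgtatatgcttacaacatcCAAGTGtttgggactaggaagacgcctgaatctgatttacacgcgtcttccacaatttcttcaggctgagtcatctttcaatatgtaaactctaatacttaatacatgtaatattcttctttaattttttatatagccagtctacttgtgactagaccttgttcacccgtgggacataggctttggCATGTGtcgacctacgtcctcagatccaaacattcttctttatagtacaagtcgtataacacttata
bHLH100: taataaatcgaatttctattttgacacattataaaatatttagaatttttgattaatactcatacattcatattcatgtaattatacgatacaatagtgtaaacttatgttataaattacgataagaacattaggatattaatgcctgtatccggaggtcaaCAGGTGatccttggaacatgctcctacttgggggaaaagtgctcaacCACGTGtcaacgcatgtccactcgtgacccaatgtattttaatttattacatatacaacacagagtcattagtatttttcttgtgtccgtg
bHLH101: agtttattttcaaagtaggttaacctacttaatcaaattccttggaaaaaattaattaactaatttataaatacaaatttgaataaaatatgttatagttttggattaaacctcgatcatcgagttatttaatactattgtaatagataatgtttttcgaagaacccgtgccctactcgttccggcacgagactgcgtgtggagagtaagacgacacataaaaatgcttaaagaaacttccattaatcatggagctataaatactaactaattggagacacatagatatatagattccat
IRT1: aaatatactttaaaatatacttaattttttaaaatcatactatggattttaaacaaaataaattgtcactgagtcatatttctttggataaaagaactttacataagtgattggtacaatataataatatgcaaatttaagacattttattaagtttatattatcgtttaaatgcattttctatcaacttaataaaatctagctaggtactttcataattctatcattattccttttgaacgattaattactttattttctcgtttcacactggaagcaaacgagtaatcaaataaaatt
FRO2: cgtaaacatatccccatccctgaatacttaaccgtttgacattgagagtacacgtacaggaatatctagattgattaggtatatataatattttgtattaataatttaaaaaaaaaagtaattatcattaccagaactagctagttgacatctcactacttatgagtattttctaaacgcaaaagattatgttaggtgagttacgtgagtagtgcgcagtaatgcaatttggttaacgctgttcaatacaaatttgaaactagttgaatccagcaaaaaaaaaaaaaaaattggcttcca
BTS: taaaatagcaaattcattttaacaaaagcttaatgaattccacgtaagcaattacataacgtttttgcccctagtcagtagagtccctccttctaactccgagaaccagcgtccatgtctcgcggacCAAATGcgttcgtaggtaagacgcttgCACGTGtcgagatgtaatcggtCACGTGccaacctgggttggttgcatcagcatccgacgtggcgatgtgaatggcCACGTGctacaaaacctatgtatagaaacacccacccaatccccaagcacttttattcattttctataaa
The Ib genes bHLH38, bHLH39 and bHLH100 each had 2 E-boxes, and in bHLH38 and bHLH100 1 of them was a G-box, starting 97 and 91 bases before the gene. The fourth Ib gene, bHLH101, had none in its window, nor had IRT1 or FRO2, and BTS had 4 E-boxes, of which 3 were G-boxes. Among 27443 protein-coding genes, 61.9% of windows of this length held CANNTG on either strand, with a median of 1, and 7.09% held CACGTG. A window with 4 or more E-boxes, as at BTS, was found at 2.28% of genes. A match of letters is not a binding site. Of the remaining genes, FIT (chr2:12004658-12006276) had 1 E-box in its window, and PYE (chr3:17567126-17569394) and FER1 (chr5:227953-230051) had none. The genes bHLH38 and bHLH39 are neighbours on the same strand, 1144 bases apart with no gene between them.

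Each library held between 57996104 and 68555138 reads assigned to genes. AHL10 transcripts were lower in ahl10-1, at 11.9 ± 1.20 against 23.9 ± 0.19 RPKM in control and 15.4 ± 1.39 against 32.9 ± 0.65 under stress (SD, n = 3), and were not absent. Levels are given as RPKM, that is reads per kb of gene relative to library size, scaled between libraries by the TMM method. Markers of root and shoot cells were summed in each library because the uptake genes are root genes. Without PYK10, an abundant root glucosidase, 18 root markers summed to 57.0, 58.7 and 118 RPKM in WT control replicates 1, 2 and 3. The sums were 101 to 120 in WT stress, 63.9 to 83.8 in ahl10-1 control and 101 to 125 in ahl10-1 stress. With PYK10 the sums were 1909, 1927 and 2347 RPKM in WT control and 1754 to 1826 in WT stress. They were 1857 to 1940 in ahl10-1 control and 1645 to 2269 in ahl10-1 stress, so WT control replicate 3 was then the highest library. On both sums WT control replicate 3 stood apart from the other 5 control libraries. It lay among the stress libraries only on the sum without PYK10. Values without this library are given where leaving it out ended a call or moved a called value by over 1.5 times.

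Per kb of gene, the median over the 12 libraries was highest for FER1 (42.0 RPKM) and BTS (39.1 RPKM). PYE and IRT1 followed at 14.0 RPKM each, then bHLH39 (7.68), bHLH101 (6.66), bHLH100 (5.88), bHLH38 (5.56), FRO2 (5.25) and FIT (4.60). Neighbours in this order had overlapping ranges over the libraries, except BTS and PYE. The spread over libraries differed widely between genes. From the lowest to the highest library, bHLH100 varied 15.7-fold, bHLH38 8.66-fold, bHLH39 6.75-fold, FRO2 6.47-fold, bHLH101 6.16-fold and IRT1 5.71-fold. FER1 varied 3.42-fold and FIT 2.69-fold, whereas BTS varied 1.86-fold and PYE 1.54-fold. The smallest count of any of the genes in a library was 95 reads, for bHLH100, and the largest 16288 reads, for BTS, so counting error was small beside the difference between libraries.

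**Figure D1:**
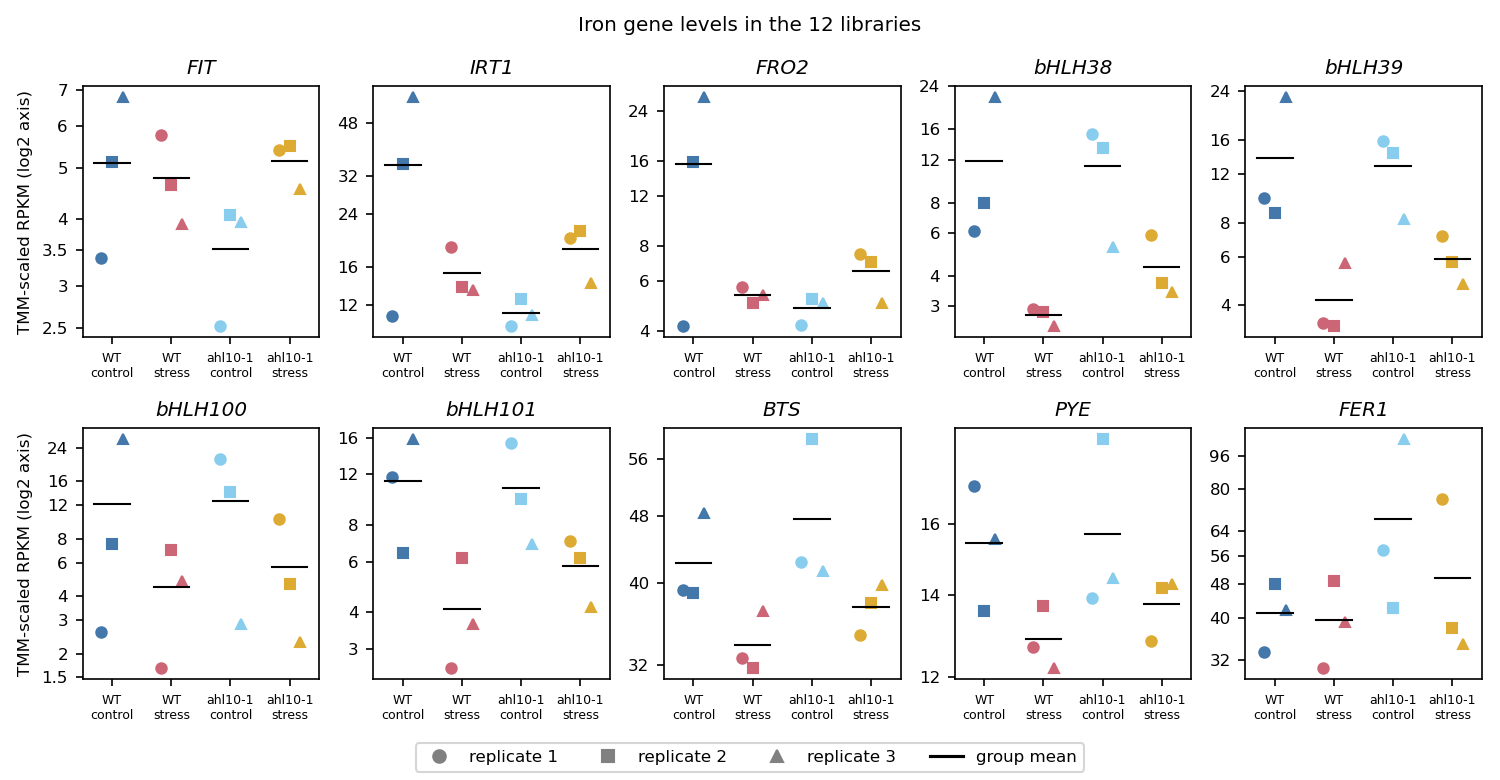
Levels of the 10 iron genes in each library, 1 panel a gene, as TMM-scaled RPKM on a log2 axis whose range differs between panels. Points are libraries, with a symbol for each replicate number, and lines are group means. For bHLH38, bHLH39 and bHLH101 all 3 WT stress libraries lie below all 3 WT control libraries, and for IRT1 and FRO2 WT control replicates 2 and 3 lie above every other library.

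In WT seedlings, 3 of the 4 Ib bHLH genes fell at low water potential. FRO2 was called as lower too, but its groups overlapped and the call was lost in 17 of 22 alternative analyses. Of the 10 genes, 4 passed the threshold of an adjusted p under 0.05 over all 22604 genes tested, all of them lower. Across all genes tested, 24.2% were called in this comparison, 12.5% as lower and 11.7% as higher. All 10 genes had a negative log2 fold change, as had 11357 of all genes tested, with a median of -1.32, against -0.0016 for all genes. The Ib genes lay between -1.45 and -2.11, and FRO2 at -1.54.

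The Ib gene bHLH38 stood at 6.10, 7.98 and 21.6 RPKM in WT control replicates 1, 2 and 3 and at 2.93, 2.84 and 2.50 in WT stress. Every stress library was below every control library, and the stress libraries lay close together. In this comparison 43.3% of all genes had groups that did not overlap, in one direction or the other. Its log2 fold change was -2.11 (SE 0.52), a 4.31-fold fall, with an adjusted p of 0.0146 in edgeR's quasi-likelihood test with Benjamini-Hochberg adjustment. The change was -1.35 without WT control replicate 3 and remained past the threshold there. Without WT stress replicate 3 the adjusted p was 0.0509, and with only the WT libraries fitted, blocked by replicate number, it was 0.0874.

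Its neighbour bHLH39 stood at 9.79, 8.64 and 22.8 RPKM in WT control and at 3.47, 3.37 and 5.70 RPKM in WT stress. Again the groups did not overlap, and WT control replicate 3 was the highest library. The fall was 3.29-fold, with a log2 fold change of -1.72 (SE 0.40) and an adjusted p of 0.00989 in edgeR. This call was kept under all 22 alternative analyses, with an adjusted p of at most 0.0484 and a change of -1.14 without WT control replicate 3.

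bHLH101 stood at 11.8, 6.41 and 15.9 RPKM in WT control and at 2.57, 6.15 and 3.66 RPKM in WT stress. The groups were separated only narrowly, by the 6.41 of control replicate 2 and the 6.15 of stress replicate 2. Its log2 fold change was -1.46 (SE 0.42) with an adjusted p of 0.0264 in edgeR, which rose to 0.082 without WT control replicate 3, was above the threshold without replicate 1 too, and was so in 6 of 22 alternatives in all. bHLH100 had a like change of -1.45 but an SE of 0.96 and an adjusted p of 0.309. Its levels were 2.59, 7.55 and 26.5 RPKM in WT control and 1.68, 6.97 and 4.79 RPKM in WT stress, so the groups overlapped, and without WT control replicate 3 the change was -0.18.

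Gene overlaps bear on these counts, since whether reads were counted by strand is not given in the sources used here. bHLH38 shares 386 bases, 31.9% of its length, with PIP5K4 on the opposite strand, and bHLH101 shares 79 bases, 6.45% of its length, with GLU1. GLU1, a glutamate synthase gene, was at 215 RPKM, and its change in WT was -0.22 (SE 0.23), with an adjusted p of 0.545 in edgeR. PIP5K4, at 6.22 RPKM, had a change of 0.04 (SE 0.13). Neither partner was called. bHLH39 overlaps no annotated gene.

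**Figure D2:**
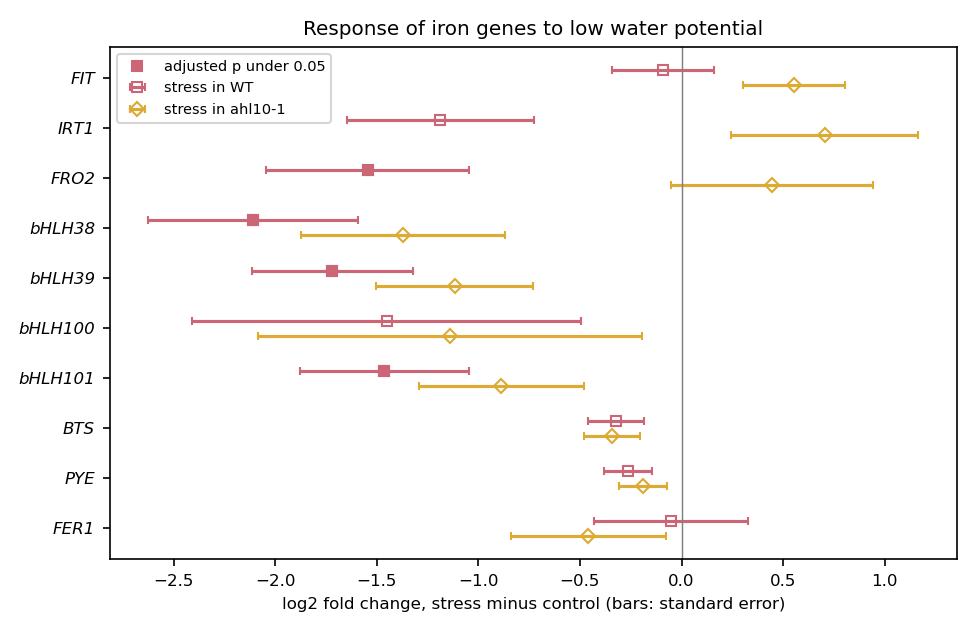
Log2 fold change from control to low water potential for the 10 genes in WT (squares) and ahl10-1 (diamonds), with standard errors as bars and filled symbols for an adjusted p under 0.05. The 4 filled symbols are FRO2, bHLH38, bHLH39 and bHLH101 in WT, and IRT1, FRO2 and FIT lie to the left of 0 in WT and to the right in ahl10-1.

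In ahl10-1 none of the 10 genes was called for stress in the main fit, which had no replicate block, whereas 27.8% of all genes tested were. With only the ahl10-1 libraries fitted and the block added, 5 were called, beside 30.6% of all genes in that fit. In the main fit 4 had an unadjusted p under 0.05, as did 39.4% of all genes. The 4 Ib genes had negative changes here too, from -1.37 for bHLH38 to -0.89 for bHLH101. bHLH39 stood at 15.8, 14.3 and 8.23 RPKM in ahl10-1 control and at 7.14, 5.77 and 4.77 RPKM under stress. All 3 stress libraries were below all 3 controls, with a change of -1.12 (SE 0.39) and an adjusted p of 0.0535 in edgeR. Here 40.2% of all genes had groups that did not overlap. bHLH38 stood at 15.3, 13.4 and 5.24 RPKM in control and at 5.88, 3.76 and 3.45 RPKM under stress, with overlap at the third control library, a change of -1.37 (SE 0.50) and an adjusted p of 0.0668.

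The count of calls in ahl10-1 depended on the fit. It rose in 9 of 22 alternatives, among them those without WT control replicate 1 or 3. Without replicate 3 of WT control bHLH38 and bHLH39 were called in ahl10-1, at adjusted p-values of 0.0155 and 0.0108 in edgeR and with the same fold changes, beside 28.4% of all genes. Deviations from the group means were weakly correlated between same-numbered control and stress libraries of ahl10-1, at 0.112, 0.110 and 0.188. Differently numbered libraries were not compared. When only the ahl10-1 libraries were fitted, blocked by replicate number, 5 of the 10 genes were called, as were 30.6% of all genes in that fit. These were IRT1, higher by 0.69 (adjusted p = 0.00633 in edgeR), and all 4 Ib genes, lower: bHLH39 by -1.09 (0.00163), bHLH101 by -0.85 (0.00518), bHLH38 by -1.29 (0.012) and bHLH100 by -1.04 (0.0252). With the block in the fit of all 12 libraries none of the 10 was called, against 28.6% of all genes. DESeq2 called bHLH38, bHLH39 and BTS, all lower, and 32.2% of all genes.

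The uptake genes IRT1 and FRO2 differed from the Ib genes in how they were spread over the libraries. IRT1 stood at 11.0, 35.3 and 58.5 RPKM in WT control and at 18.7, 13.8 and 13.5 RPKM in WT stress. In ahl10-1 it stood at 10.2, 12.5 and 11.1 RPKM in control and at 20.0, 21.1 and 14.2 RPKM under stress. WT control replicates 2 and 3 were above the other 10 libraries, while WT control replicate 1 was below every stress library and within the range of ahl10-1 control.

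The change in IRT1 with stress in WT was -1.19 (SE 0.46) with an adjusted p of 0.0891 in edgeR. It ranged from -1.61 (adjusted p = 9.61e-04) without WT control replicate 1 to -0.59 without replicate 3. In ahl10-1 the change was 0.71 (SE 0.46) with an adjusted p of 0.288, although the 3 stress libraries were all above the 3 controls. Groups failed to overlap for 40.2% of all genes in that comparison and for 43.3% in WT.

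FRO2 followed the same libraries. It stood at 4.16, 15.8 and 26.9 RPKM in WT control, at 5.72, 5.01 and 5.33 RPKM in WT stress, at 4.19, 5.17 and 5.03 RPKM in ahl10-1 control and at 7.51, 7.03 and 5.03 RPKM in ahl10-1 stress. Its WT groups overlapped, since WT control replicate 1 was the lowest of the 12 libraries. The change in WT was -1.54 (SE 0.50) with an adjusted p of 0.0488 in edgeR, and the call was lost in 17 of 22 alternatives, with an adjusted p of up to 0.376. Blocked by replicate number, in the fit of all libraries, the adjusted p was 0.0838, and without WT control replicate 3 the change was -0.90 (adjusted p = 0.171). In ahl10-1 the change was 0.44 (SE 0.50).

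FIT, the partner of the Ib factors, did not pass the test in either genotype. It stood at 3.39, 5.12 and 6.78 RPKM in WT control and at 5.77, 4.65 and 3.91 RPKM in WT stress, with a change of -0.09 (SE 0.25, adjusted p = 0.827 in edgeR). In ahl10-1 it stood at 2.52, 4.07 and 3.95 RPKM in control and at 5.39, 5.49 and 4.55 RPKM under stress. All stress libraries were above all controls, where 40.2% of all genes had groups without overlap. The change was 0.55 (SE 0.25) with an adjusted p of 0.126. The sign in WT was not stable: it was positive without WT control replicate 3 (0.17) and close to 0 on the RPKM values.

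BTS and PYE, which act to limit the response, had small negative changes of like size in both genotypes. BTS stood at 39.2, 38.9 and 48.4 RPKM in WT control and at 32.6, 31.7 and 37.0 RPKM in WT stress. In ahl10-1 it stood at 42.2, 59.1 and 41.2 RPKM in control and at 34.7, 37.8 and 39.8 RPKM under stress. Control and stress libraries did not overlap in either genotype, as for 43.3% of all genes in WT and 40.2% in ahl10-1. Neither change was called, at -0.32 (SE 0.14, adjusted p = 0.113 in edgeR) in WT and -0.34 (SE 0.14, adjusted p = 0.0833) in ahl10-1. PYE was between 12.2 and 18.8 RPKM in all libraries, with changes of -0.26 (SE 0.12) in WT and -0.19 (SE 0.12) in ahl10-1.

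The ferritin gene FER1 did not pass the test in any comparison. It stood at 33.3, 48.2 and 41.7 RPKM in WT control and at 30.6, 49.0 and 39.2 RPKM in WT stress, with a change of -0.05 (SE 0.38, adjusted p = 0.939 in edgeR). In ahl10-1 it stood at 57.7, 42.4 and 105 RPKM in control and at 76.2, 38.0 and 34.8 RPKM under stress. Control replicate 3 was the highest of the 12 libraries, and the groups overlapped. The antisense gene AT5G01595 covers 63.6% of FER1, at 8.91 RPKM.

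The response of WT in the authors' deposited table, which gives smaller fold changes, also had 4 of the 10 genes at an adjusted p under 0.05, all lower, beside 26.8% of all genes with an adjusted p there. In the authors' deposited table these were bHLH38 (-1.26, adjusted p = 0.00147), bHLH39 (-1.12, 0.00454), bHLH101 (-1.17, 2.05e-04) and BTS (-0.31, 0.0165). FRO2 was at -0.76 with an adjusted p of 0.0932 in the authors' deposited table. Their 2 tables of genotype comparisons called none of the 10.

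Between genotypes, no iron gene was called in control, where 0.0177% of all genes tested were, or under stress, where 0.0265% were. In control, IRT1 was 3.09-fold and FRO2 3.26-fold lower in ahl10-1 than in WT, with log2 fold changes of -1.63 (SE 0.47) and -1.70 (SE 0.50). The adjusted p was 0.854 for both in edgeR, from unadjusted values of 0.00599 and 0.00717. No library of ahl10-1 control was above 12.5 RPKM for IRT1 or 5.17 RPKM for FRO2, and WT control replicate 1 was as low, at 11.0 and 4.16 RPKM, so the groups overlapped, whereas 7.67% of all genes had groups that did not. Without that library both were called, at -2.05 (adjusted p = 0.0115) and -2.15 (adjusted p = 0.00473), as were 0.0264% of all genes. Without WT control replicate 3 they were at -1.04 and -1.06 and were not called.

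FIT was at -0.54 (SE 0.25) in the same comparison, and the 4 Ib genes lay between -0.10 and 0.05. Under stress all 10 genes had positive changes in ahl10-1, from 0.10 for PYE to 0.66 for bHLH38, as had 11712 of all 22604 genes tested. The signs of FIT, bHLH100 and FER1 turned when 1 library was left out. For bHLH38 the ahl10-1 stress libraries were all above the WT stress libraries, as they were in one direction or the other for 11.9% of genes. None of the 10 had an unadjusted p under 0.05 under stress, and DESeq2 called none of them in either genotype comparison.

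The difference between the stress responses of the genotypes was 1.89 (SE 0.65) for IRT1 and 1.99 (SE 0.70) for FRO2 on the log2 scale, with unadjusted p-values of 0.0158 and 0.0183 in edgeR. Neither passed the adjustment over all genes (adjusted p = 1.00 for both), nor did any gene, so that the background was 0%. Without WT control replicate 1 the differences were 2.32 (adjusted p = 0.115) and 2.44 (adjusted p = 0.0848), and without replicate 3 they were 1.30 and 1.34. Among all genes 320 had an unadjusted p under 0.05 in this test, and DESeq2 called 1 gene, which was none of the 10. For the 4 Ib genes the difference lay between 0.31 and 0.74 with an SE of 0.55 to 1.33. Averaged over treatments, none of the 10 genes differed between genotypes at an adjusted p under 0.05 in edgeR, against 0.0708% of all genes. None had an unadjusted p under 0.05 there either, against 8.89% of all genes.

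**Figure D3:**
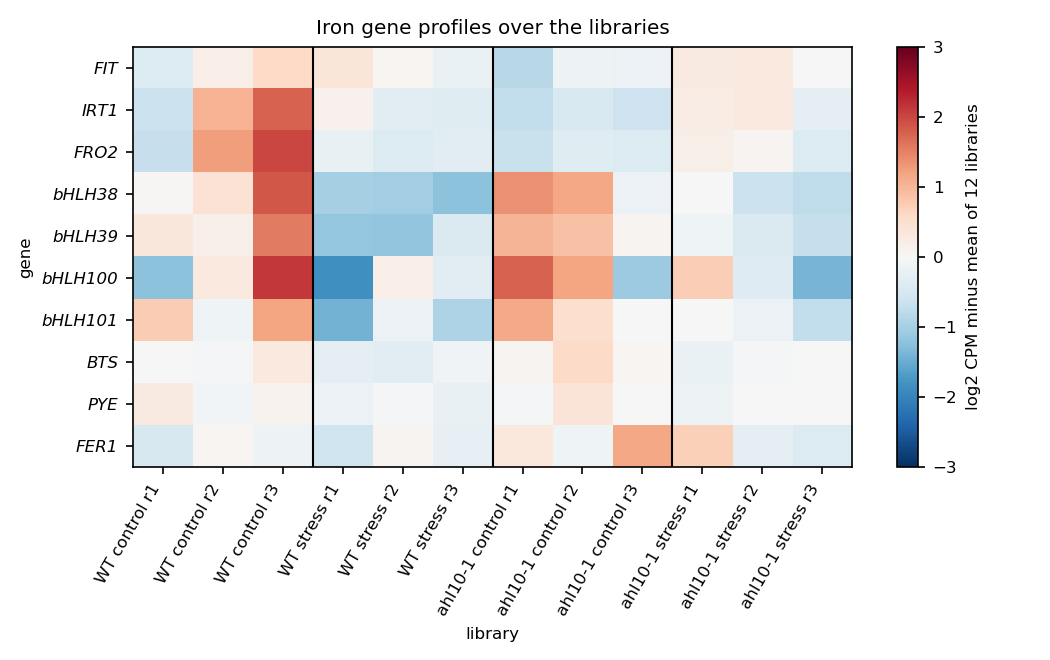
Log2 CPM of each gene minus its mean over the 12 libraries, in colour, with libraries grouped by genotype and treatment. IRT1 and FRO2 are high in WT control replicates 2 and 3 and low in replicate 1, and the 4 Ib genes are high in WT control replicate 3 and in ahl10-1 control replicates 1 and 2.

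The likeness of profiles was measured as the root mean square difference between standardised log2 CPM values over the 12 libraries, among 20000 other genes with a mean of at least 1 CPM. FRO2 was the gene most like IRT1 (0.208), and FIT ranked 23 (0.606). After FRO2 came PP2-A8 (0.339), AT3G61930 (0.366), CYP82C4 (0.371), which makes the iron-mobilising coumarin sideretin, and MTP3 (MTPA2 in RefSeq, 0.389), a vacuolar zinc transporter of iron-deficient roots. bHLH39 was most like AT1G13210 (0.254), a P-type ATPase gene, FRO3 (0.294), a mitochondrial ferric reductase gene, and bHLH38 (0.298), followed by AT5G11810 (0.305) and RLP30 (0.350). bHLH101 ranked 67 and bHLH100 1239 for likeness to bHLH39. The closest to FER1 were OFP16 (0.455), AT2G22790 (0.520), AT5G19150 (0.596), AT4G13730 (0.612) and ARL1 (0.635), so no gene was as close to FER1 as FRO2 was to IRT1.

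Because IRT1, FRO2 and FIT are root genes, the root markers were set beside them. In WT 4 of 19 root markers rose with stress (EXPA7, EXPA18, MYB36 and WOX5) and 1 fell (CASP4), so that 26.3% were called beside 24.2% of all genes. When WT control replicate 3 was left out, 11 rose and none fell, or 57.9% beside 23.6%. In ahl10-1 7 rose (BRN2, EXPA7, EXPA18, LRX1, MYB36, PRP3 and WOX5) and none fell, or 36.8% beside 27.8% of all genes. No root marker was at 0 reads in any library. Of the shoot markers, 2 of 12 fell in WT (LHCB1.1 and LHCB2.1) and 1 rose in ahl10-1 (EPF1), or 16.7% and 8.33%, with sums of 14295 to 27143 RPKM over the libraries.

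WT control replicate 2 had an IRT1 level of 35.3 RPKM at a root marker sum, without PYK10, of 58.7, while replicate 1 had 11.0 RPKM at 57.0. The stress libraries, with sums above 100.0, had IRT1 levels of 13.5 to 21.1 RPKM. Taken relative to the mean of the 19 root markers, the difference with stress in WT was -1.40 for IRT1, -1.67 for FRO2 and -0.55 for FIT, and the WT groups of each no longer overlapped. For bHLH38, bHLH39 and bHLH101 it was -2.37, -2.11 and -1.94. In ahl10-1 it was 0.01 for IRT1, -0.26 for FRO2 and -0.11 for FIT, and -1.95, -1.76 and -1.52 for bHLH38, bHLH39 and bHLH101, with no overlap for these 3 or for FRO2. Between genotypes in control the difference on this scale was -1.12 for both IRT1 and FRO2, without overlap for IRT1 and with overlap for FRO2. On this scale BTS and PYE were also without overlap in both genotypes, at -0.81 and -0.75 in WT and -1.01 and -0.86 in ahl10-1. bHLH100 and FER1 overlapped in both. The scale subtracts the same value, the mean log2 CPM of the markers, from every gene of a library. That mean was 1.83 to 2.86 in WT control and 2.57 to 2.79 in WT stress. In ahl10-1 it was 1.85 to 2.17 in control and 2.42 to 2.83 under stress. A gene of unchanged level therefore read on average as lower under stress. Before the subtraction the difference in WT was -0.05 for FIT and -0.26 for PYE. The share of all genes without overlap on this scale was not computed. The part of root content in the changes was not tested further.

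**Figure D4:**
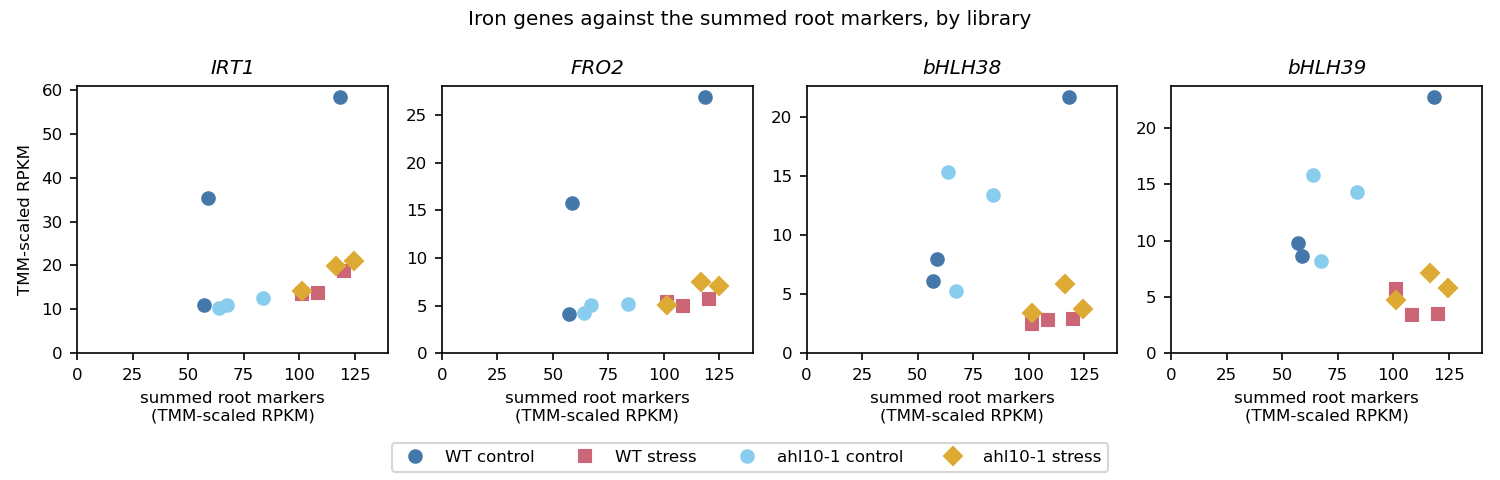
Levels of IRT1, FRO2, bHLH38 and bHLH39 (TMM-scaled RPKM) against the sum of 18 root markers without PYK10 in each library. At sums above 100.0 WT control replicate 3 lies far above the 6 stress libraries for all 4 genes.

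Beyond the 10 genes, 55 further iron genes in 5 lists were examined, of which 51 could be tested; MYB72, VIT1, VTL3 and VTL4 had too few reads. In WT 6 rose and 16 fell, or 43.1%, beside 24.2% of all genes, with a median log2 fold change of -0.20. In WT 10 rose and 13 fell without WT control replicate 3, or 45.1%, beside 23.6% of all genes. In ahl10-1 13 rose and 14 fell, or 52.9%, beside 27.8%. Called in both genotypes were 8 genes that fell (URI, FRO3, YSL1, YSL3, NAS4, IREG1, VTL5 and IREG3) and 5 that rose (FRO4, FRO8, FRD3, YSL2 and NRAMP4), and none was called in opposite directions. Of these, the WT call of IREG3 was lost in 12 of 22 alternatives (adjusted p up to 0.142), and that of URI in 6. The calls of YSL2 were not followed through the alternatives. The share of all genes called in both genotypes was not computed. Leaving out WT control replicate 1 ended the WT calls of URI, IMA1, NRAMP1, FRO1 and IREG3. No gene of these lists was called in a genotype or interaction comparison.

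Among 12 tested regulators 4 fell in WT and none rose, or 33.3%, beside 24.2% of all genes. They were URI (-0.29, SE 0.08), a bHLH factor that acts upstream of the Ib genes, BTSL1 (-1.08, SE 0.30), a relative of BTS, MYB10 (-0.79, SE 0.23), and IMA1 (-0.71, SE 0.21), which encodes a peptide that promotes iron uptake. IMA1 stood at 38.2, 31.6 and 33.3 RPKM in WT control and at 23.9, 21.8 and 17.2 RPKM in WT stress. The WT calls were lost in 7 of 22 alternatives for BTSL1, 8 for MYB10 and 6 each for URI and IMA1. Without WT control replicate 3 the change was -0.56 for BTSL1, still called, -0.55 for MYB10 (adjusted p = 0.0942 in edgeR) and -0.73 for IMA1 (adjusted p = 0.0522), while BTSL2 was then called, at 0.39. In ahl10-1 3 fell (URI, bHLH104 and bHLH11) and BTSL2 rose, or 33.3%, beside 27.8% of all genes. The call of bHLH104 (-0.22) was lost in 15 of 22 alternatives and that of BTSL2 (0.37) in 6, whereas bHLH11 (-1.46) kept it in all 22. ILR3, which activates the Ib genes with its relatives, had a change of -0.04 (SE 0.05) in WT.

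Genes of root surface mobilisation were split. Of 8 tested, 50% were called in WT, beside 24.2% of all genes, and 25% in ahl10-1, beside 27.8%. In WT S8H and CYP82C4, successive enzymes of coumarin synthesis, fell by 3.79 (SE 0.79) and 2.04 (SE 0.64) on the log2 scale, F6'H1, the first enzyme of that path, fell by 0.81 (SE 0.23), and NRAMP1, a metal transporter, rose by 0.38 (SE 0.11). CYP82C4 stood at 3.02, 24.1 and 29.7 RPKM in WT control and at 4.82, 4.30 and 4.73 RPKM in WT stress, with replicate 1 low as for IRT1. The call was lost in 17 of 22 alternatives for CYP82C4, with an adjusted p of up to 0.382, in 9 for F6'H1, 5 for NRAMP1 and 1 for S8H, whose smallest change over the alternatives was -1.85. Without WT control replicate 3 CYP82C4 was at -1.55 (adjusted p = 0.137 in edgeR) and F6'H1 at -0.57 (adjusted p = 0.0878), neither called, and AHA2 (0.39) and PDR9 (0.54) were called. In ahl10-1 AHA2, the proton pump that acidifies the soil around roots, and PDR9, a coumarin exporter, rose by 0.46 (SE 0.13) and 0.72 (SE 0.19), and none of the 8 fell. For S8H in ahl10-1 the change was -2.21 (SE 0.79) with an adjusted p of 0.0598 in edgeR.

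Of 7 other ferric reductases, FRO3 fell in WT (-0.74, SE 0.12) and in ahl10-1 (-0.47, SE 0.12), and FRO4 and FRO8 rose in both. In each genotype 57.1% of this list were called, beside 24.2% of all genes in WT and 27.8% in ahl10-1. FRO3 stood at 31.6, 35.4 and 43.9 RPKM in WT control and at 20.6, 22.0 and 24.0 RPKM in WT stress. FRO1, next to FRO2 on the chromosome, fell in WT (-1.89, SE 0.57), a call lost in 6 of 22 alternatives, and FRO6 fell in ahl10-1 (-1.01, SE 0.25). The size of the FRO1 change in WT depended on the method. Apart from the fits with 1 library left out, it ranged from -1.91 to -0.17 over the alternatives.

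The list of chelation and long distance transport had the largest share of calls in ahl10-1, 9 of 10, with 4 higher and 5 lower, beside 27.8% of all genes. In WT 60% of the list were called, beside 24.2%. Nicotianamine chelates iron for transport, and its synthase gene NAS4 stood at 39.9, 37.6 and 33.9 RPKM in WT control and at 20.7, 18.3 and 15.9 RPKM in WT stress (-1.02, SE 0.19). It fell by 1.27 in ahl10-1. The metal-nicotianamine transporter gene YSL1 fell by 1.01 (SE 0.21) in WT and by 1.02 (SE 0.21) in ahl10-1, and FRD3, a citrate exporter that loads iron into the xylem, rose by 0.69 (SE 0.14) and 0.93 (SE 0.14). NAS3 fell (-2.57, SE 0.46) and NAS2 rose (1.74, SE 0.50) in ahl10-1, from levels under 4 RPKM in control. Neither call was followed through the alternatives.

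Of 14 tested genes of storage and organelle transport, VTL5, a vacuolar iron transporter-like gene, fell most, from 48.1, 40.2 and 64.3 RPKM in WT control to 16.4, 21.3 and 21.9 RPKM in WT stress (-1.36, SE 0.27), and by 1.59 in ahl10-1. NRAMP4, which releases iron from the vacuole, rose in both genotypes (0.44 in WT and 0.43 in ahl10-1, SE 0.07 for each). MTP3 was called as lower in WT (-0.66), but the call was lost in 17 of 22 alternatives and the change was -0.29 without WT control replicate 3. The other ferritin genes were not called in WT, and in ahl10-1 FER3 (-0.47, SE 0.11) and FER4 (-0.86, SE 0.22) fell while FER2 rose (0.43, SE 0.14). The call of FER2 was not followed through the alternatives. FER4 was called in WT as well, at -0.75, without WT control replicate 3.

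**Figure D5:**
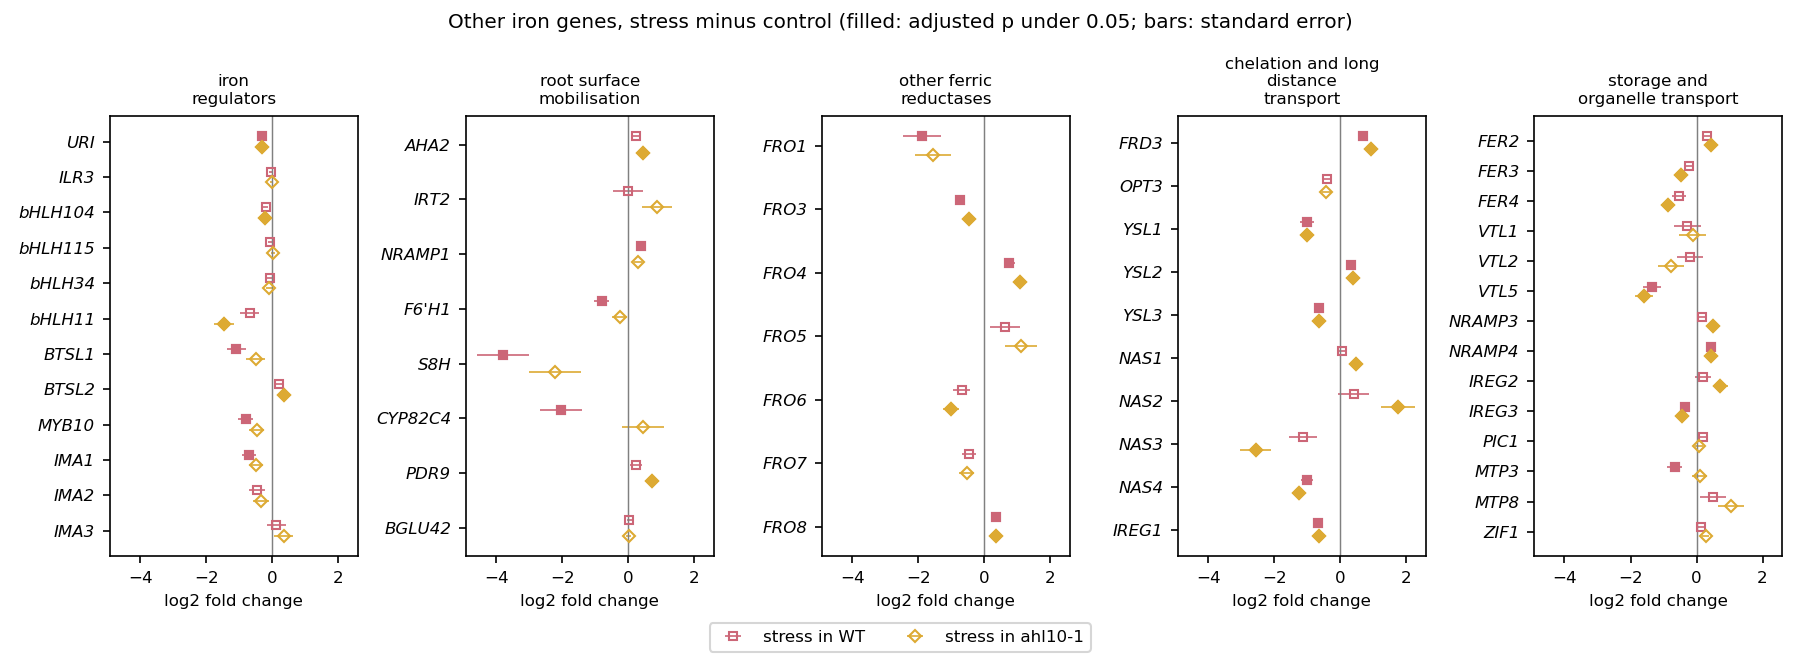
Log2 fold change with stress of the 51 tested further iron genes in WT (squares) and ahl10-1 (diamonds), by list, with standard errors as bars and filled symbols for an adjusted p under 0.05. S8H and CYP82C4 lie furthest to the left in WT, at -3.79 and -2.04, and NAS3 in ahl10-1, at -2.57.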

How the data were processed

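The 10 genes and all lists were chosen with earlier results of these data known. For each library the authors deposited estimated counts of reads per gene, with gene length, an RPKM value and the fraction of multi-mapped reads, per the file headers. The deposited counts were whole except in 3.98% to 4.56% of genes and were rounded. The submitters' processing notes name TAIR10, Bowtie2, CASAVA, bcl2fastq 1.8.4 and DESeq2 without their roles. The counter, and whether it used strand, are not given in the sources used here. The authors also deposited comparison tables with log2 fold changes and their standard errors, p-values and a mean count, a score used for nothing here. Per the labels, libraries were strand-specific, from oligo-dT selected RNA, and the series describes 3 independent experiments.

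Genes were filtered with filterByExpr (minimum count 10, total 15), leaving 22604 of 33602. The 12 libraries entered 1 model in edgeR 4.0.16, run in R 4.3.3 (quasi-likelihood, robust, TMM, 4 group means, 8 residual degrees of freedom, biological coefficient of variation 0.144), tested in 6 comparisons and adjusted by Benjamini-Hochberg over all genes within each. Standard errors are the log2 fold change over the square root of F. Levels are CPM with TMM factors (0.886 to 1.06) divided by the deposited length. Replicates of a group always differed by more than counting noise, with 16.0 to 108 as the chi-square divided by its degrees of freedom.

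Named were the 10 genes, in each further list up to 5 genes with the smallest p for stress in WT and up to 3 in each other comparison, and the 5 genes most like IRT1, bHLH39 and FER1. Root and shoot markers are named where called. Alternatives were DESeq2 size factors, no filter, DESeq2 1.42.0, removal of multi-mapped reads, limma 3.58.1 on log2 RPKM with a pseudocount of 1 or 0.1, the replicate block, only the groups compared, and each library left out. Fits without robust estimation, values relative to root markers and list counts without 1 WT control library were chosen after seeing the data. Replicate numbers come from the titles. Correlations of the deviations of same-numbered libraries were 0.112, 0.110 and 0.188 between control and stress in ahl10-1 and -0.04 to 0.02 in WT. Between genotypes they were 0.148, 0.169 and -0.0997 in control and 0.0523 to 0.105 under stress. The main fit has no replicate block. Only the fits with a block took the numbers to pair libraries, although these correlations are low and no label says what a number marks. P-values measure the spread between these libraries. Promoter windows were read from RefSeq's TAIR10.1 by gene identifier, and all 65 iron genes matched its gene table. Figures were drawn with matplotlib 3.10.9.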

Additional observations from a re-analysis of the deposited data

How the results depend on the processing

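For stress in WT, 4 of the 10 genes were called. The count was 2 with only the groups compared, 2 with these and the replicate block, and 3 with the replicate block in the fit of all libraries. With 1 library left out it ranged from 1 to 4, with 1 without WT stress replicate 3 and 2 without WT stress replicate 1 or WT control replicate 3. For stress in ahl10-1, none was called, against 3 by the DESeq2 Wald test, 3 with only the groups compared, 5 with these and the replicate block, 2 by edgeR without robust estimation, and 0 to 3 with 1 library left out, the most without WT control replicate 1. For genotype in control the range was 0 to 2, with 2 without WT control replicate 1. No other comparison called any of the 10 under any alternative. In the fit of all libraries the replicate block ended the call of FRO2 for stress in WT and changed no other call of the 10 genes. The number called over all genes moved with the fit too. For stress in WT it was 5478, with 3567 to 5975 when 1 library was left out and 4578 to 6592 over the other alternatives. For stress in ahl10-1 it was 6277, with 4525 to 6465 and 4985 to 7271. The cause of these changes was not tested.

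Signs turned in 27 recomputed values, none of them of a called change. On log2(RPKM + 1) and log2(RPKM + 0.1) FIT was at 0.0018 and 0.0093 and FER1 at 0.0032 and 0.0031 for stress in WT, and PYE at -0.043 and -0.046 for genotype in control. With 1 library left out, FIT ranged from -0.31 to 0.17 and FER1 from -0.23 to 0.10 for stress in WT. For genotype in control the ranges were -0.38 to 0.68 for bHLH38, -0.34 to 0.47 for bHLH39, -0.53 to 1.32 for bHLH100, -0.43 to 0.24 for bHLH101, -0.015 to 0.28 for BTS and -0.12 to 0.11 for PYE. For genotype under stress they were -0.018 to 0.26 for FIT, -0.36 to 0.84 for bHLH100 and -0.12 to 0.51 for FER1. Over all genes, DESeq2 called 26 genes for genotype in control against 4, 33 under stress against 6 and 1 for the interaction against 0. Stress in WT called 3567 genes without WT stress replicate 1 against 5478. Of 2196 recomputed fold changes, 1951 kept their direction and their side of the threshold, 159 lost a call and 59 gained one, and of 252 recomputed counts, 228 stayed within 1.5 times the reported count. Each of the 10 genes had at least 95 reads in every library.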
